A study of Mus musculus with 4 samples.

Results

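The mRNAs of the sperm calcium channel CatSper and of its transmembrane partner Tmem249 were compared between RNA recovered with a TSSK2 antibody and RNA recovered with control IgG from mouse testis germ cells. The set was chosen by gene symbol and held 10 genes, Catsper1, Catsper2, Catsper3, Catsper4, Catsperb, Catsperd, Catsperg1, Catsperg2, Efcab9 and Tmem249, of the 21936 gene identifiers in the count table. All 10 were counted in each library, with 71 to 3492 counts, and all 10 were among the 14722 genes tested after the filter on low counts. No member passed the thresholds of the comparison in the fit without covariates, though the study counted Tmem249 among its TSSK2-associated mRNAs. Tmem249 had the largest difference of the 10, with 66.5 and 66.2 normalized CPM (counts scaled to library size) in TSSK2-IP and 11.1 and 32.9 in the controls, whereas the members that form the channel pore had no common direction.

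CatSper is the calcium channel of the sperm flagellum, and calcium entry through it drives the vigorous, asymmetric beating known as hyperactivation. Its pore is built from CATSPER1 to CATSPER4, which are surrounded by auxiliary subunits with large extracellular domains and by small cytoplasmic and transmembrane partners. The genes are expressed in male germ cells, from late spermatocytes to spermatids, and male mice that lack a pore subunit are infertile.

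The samples were 2 TSSK2-IP and 2 control IgG-IP libraries from germ cells of adult C57BL/6 mice, and no transgene, deletion or drug is named for either group. Collagenase was used to release the germ cells, and after cross-linking and sonication the pelleted fraction was incubated with antibody against TSSK2 or, as control, with mouse IgG. TSSK2 is a testis-specific serine/threonine kinase that localizes to the late-CB, the cytoplasmic granule of elongating spermatids. The comparison asked which mRNAs were recovered with TSSK2 above the level recovered with IgG. The labels number the replicates and do not say whether they came from separate animals, so p-values measure the spread between these samples, which may be technical. In such bulk material, more RNA bound per cell, more cells of a type and more unbound RNA carried over cannot be told apart.

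The total count was 3938922 to 9858941 per library, and 19999 to 20645 genes had a count. CPM values, apart from sums over marker lists, carry the TMM normalization of edgeR, and 1 count was worth 0.156 to 0.23 CPM. The TSSK2-IP replicates were close, with an SD of 0.23 for the log2 difference between them over 6780 abundant genes. The control replicates stood apart, with an SD of 0.93, and control IgG-IP replicate 1 was also the deepest library. The fold changes of single genes are therefore also given without it. Marker sums are scaled to the total count alone, without the TMM factor, which was 0.652 for control IgG-IP replicate 1 and 1.117 to 1.177 for the other 3. On that scale haploid spermatid markers, such as protamines and Akap4, summed to 6118 and 5644 CPM in TSSK2-IP and 8193 and 6991 in control IgG-IP. Those of Leydig cells summed to 10.4 in control IgG-IP replicate 1 and 39.6 to 44.7 in the other 3. The smallest p that a two-sided exact permutation of 4 libraries in groups of 2 allows is 0.333.

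Sequence bears on 2 points, the identity of the Tmem249 message and the resemblance between Catsperg1 and Catsperg2. Tmem249 (ENSMUSG00000116376) lies on the minus strand of GRCm38 at chr15:76533213-76535366 and has 2 annotated transcripts that cover 1088 exonic bases. Its coding sequence of 513 bases lies in 4 exons and has 170 codons before the stop. The first 300 coding bases are printed from the annotated transcript, with the start codon in capitals, because this is the message with the largest difference.
Tmem249: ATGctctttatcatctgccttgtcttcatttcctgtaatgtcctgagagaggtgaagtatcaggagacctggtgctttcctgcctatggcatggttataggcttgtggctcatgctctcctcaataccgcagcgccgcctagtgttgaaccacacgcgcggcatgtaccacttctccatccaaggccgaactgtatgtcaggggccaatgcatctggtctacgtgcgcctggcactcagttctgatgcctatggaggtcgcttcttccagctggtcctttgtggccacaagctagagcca

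Catsperg1 and Catsperg2 lie on the minus strand of chromosome 7 and are near copies. Their coding sequences of 3453 and 3435 bases aligned over 3430 bases, of which 3314, or 96.6%, were identical, and the longest identical run was 341 bases. The stretch that differed most, bases 2381 to 2470 of each coding sequence, is shown with its 14 differences in capitals. Within the aligned coding bases, reads can separate the genes only over such differences.
Catsperg1: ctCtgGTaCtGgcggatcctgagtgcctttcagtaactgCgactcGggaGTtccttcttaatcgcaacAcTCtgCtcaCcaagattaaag
Catsperg2: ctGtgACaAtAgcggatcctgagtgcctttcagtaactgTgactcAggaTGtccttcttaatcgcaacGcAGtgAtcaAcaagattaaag
Of the stretches of 100 bases in the annotated transcripts, 23.7% of those of Catsperg1 and 24.8% of those of Catsperg2 occurred in the other gene. The separate counts of the 2 genes are therefore uncertain. Reads were sequenced in pairs and, before trimming, were longer than 100 bases, so the share of ambiguous reads may be smaller than these values. Catsperb shared 4.37% of its stretches with Gm18795, and Catsper1, Catsper2, Catsper3, Catsper4, Catsperd, Efcab9 and Tmem249 shared none with another gene.

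Among the pore subunits, the voltage-gated proteins that conduct calcium, Catsper1 and Catsper2 had their highest level in control IgG-IP replicate 1. Catsper1 (chr19:5335741-5344280, plus strand) had 617 and 631 counts in TSSK2-IP and 1686 and 542 in control IgG-IP, or 128 and 120 against 263 and 125 normalized CPM. Catsper2 (chr2:121392631-121413792, minus strand) had 1160 and 1181 counts against 3492 and 1020, or 240 and 225 against 545 and 234 CPM. For both genes, the TSSK2-IP libraries lay beside control IgG-IP replicate 2 and far below control IgG-IP replicate 1. Catsper1 had a log2 fold change of TSSK2-IP over control of -0.65 (SE 0.52, adjusted p = 0.587 by quasi-likelihood in edgeR after Benjamini-Hochberg correction, as for all adjusted p-values here). Catsper2 had one of -0.74 (SE 0.62, adjusted p = 0.595). Without control IgG-IP replicate 1 these values were -0.00 and -0.01, and leaving out the other control in its place gave -1.14 and -1.28. The exons of Catsper2 share 18 bases with those of Pdia3 on the opposite strand, a chaperone gene whose log2 fold change was -0.94 (adjusted p = 0.458), and -0.20 without control IgG-IP replicate 1.

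The other pore subunits were level or uneven. Catsper3 (chr13:55784568-55808998, plus strand) had 250 and 410 counts in TSSK2-IP and 257 and 252 in control IgG-IP, or 51.8 and 78.0 against 40.1 and 57.9 CPM. The groups overlapped, and the SD of 18.5 around a mean of 64.9 CPM was, in proportion, the widest spread in TSSK2-IP among the 10 genes. Catsper4 (chr4:134211970-134227383, minus strand) had 687 and 779 counts against 923 and 693, or 142 and 148 against 144 and 159 CPM, so that all 4 libraries were close. The log2 fold change was 0.41 (SE 0.42, adjusted p = 0.678) for Catsper3 and -0.06 (SE 0.47, adjusted p = 0.968) for Catsper4, and without control IgG-IP replicate 1 these were 0.17 and -0.13. With errors of this size, a value near 0 does not show that the groups were equal.

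**Figure D1:**
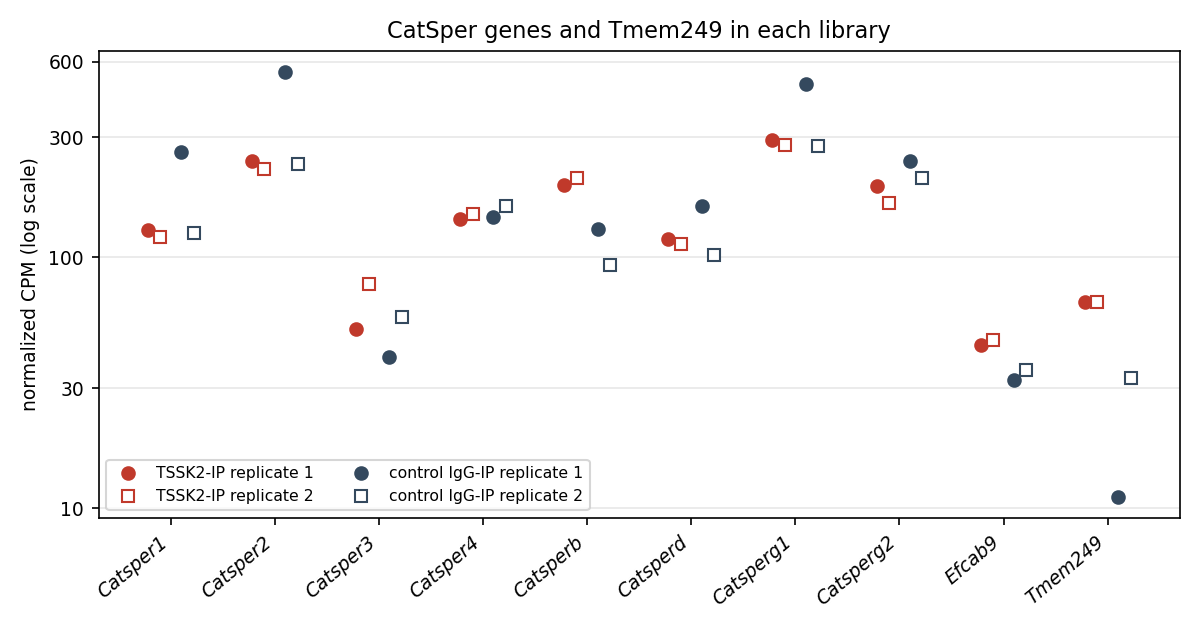
TMM-normalized CPM (log axis) of the 10 genes in each of the 4 libraries, with red for TSSK2-IP, blue for control IgG-IP, filled circles for replicate 1 and open squares for replicate 2. Both TSSK2-IP points lie above both control points for Catsperb, Efcab9 and Tmem249, and control IgG-IP replicate 1 is far above the other 3 libraries for Catsper1, Catsper2 and Catsperg1.

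Of the auxiliary subunits, whose extracellular domains form a canopy over the pore, Catsperb was higher in TSSK2-IP in every pairing of libraries, without passing the test. Catsperb (chr12:101404653-101626009, plus strand) had 938 and 1090 counts in TSSK2-IP and 828 and 406 in control IgG-IP, or 194 and 207 against 129 and 93.3 CPM. The TSSK2-IP libraries lay 1.51-fold to 2.22-fold above the controls and the groups did not overlap. The log2 fold change was 0.85 (SE 0.49, adjusted p = 0.449), with 1.11 when control IgG-IP replicate 1 was dropped and 0.59 when the other control was. Unlike Catsper1 and Catsper2, Catsperb was thus further from the controls when the deepest library was left out.

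Catsperd, Catsperg1 and Catsperg2 had negative values. Catsperd (chr17:56628143-56664456, plus strand) had 571 and 592 counts against 1018 and 443, or 118 and 113 against 159 and 102 CPM, with the TSSK2-IP libraries between the controls. Catsperg1 (chr7:29181321-29214035, minus strand) had 1414 and 1461 counts against 3143 and 1200, or 293 and 278 against 490 and 276 CPM, and again only control IgG-IP replicate 1 stood away from the rest. Catsperg2 (chr7:29697219-29727032, minus strand) had 919 and 863 counts against 1549 and 895, or 191 and 164 against 242 and 206 CPM, and was the member with both TSSK2-IP libraries below both controls. The log2 fold changes were -0.17 (SE 0.47, adjusted p = 0.893) for Catsperd, -0.42 (SE 0.60, adjusted p = 0.780) for Catsperg1 and -0.33 (SE 0.52, adjusted p = 0.797) for Catsperg2. Without control IgG-IP replicate 1, those of Catsperd and Catsperg1 changed sign, to 0.19 and 0.05, and that of Catsperg2 was -0.21. The ratio of Catsperg1 to Catsperg2 counts was 1.54 and 1.69 in TSSK2-IP and 2.03 and 1.34 in control IgG-IP. Since reads of the near copies can be assigned to either, their summed counts were also fitted, with a log2 fold change of -0.39 (adjusted p = 0.821).

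Efcab9 (chr11:32522751-32532081, minus strand), which encodes the calcium-binding EF-hand protein on the cytoplasmic side of the channel, was slightly higher in TSSK2-IP in every pairing. It had 215 and 245 counts in TSSK2-IP and 208 and 155 in control IgG-IP, or 44.6 and 46.6 against 32.5 and 35.6 CPM. The means were 45.6 ± 1.45 and 34.0 ± 2.23 CPM (SD, n = 2 each), so the replicates of each group were close to each other. The log2 fold change was 0.42 (SE 0.39, adjusted p = 0.631), with 0.36 when control IgG-IP replicate 1 was dropped and 0.44 when the other control was.

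Tmem249 encodes a small transmembrane subunit of the channel complex, also called CATSPERθ. It had 321 and 348 counts in TSSK2-IP and 71 and 143 in control IgG-IP, or 66.5 and 66.2 against 11.1 and 32.9 CPM. The TSSK2-IP libraries were nearly equal, and the lower of them was 2.02-fold above the higher control and the higher of them 6.01-fold above the lower control. The log2 fold change was 1.61 (SE 0.49), with p = 0.00567 before and p = 0.213 after Benjamini-Hochberg adjustment in edgeR's test, and p = 0.333 in the two-sided exact permutation test. Tmem249 had thus a mean difference above 2-fold and did not pass the adjusted threshold of 0.05 in edgeR's fit. The study, by DESeq2 at the same thresholds, placed it among its TSSK2-associated mRNAs, whereas DESeq2 here gave 1.59 (adjusted p = 0.272). The contrast was not particular to Tmem249, since DESeq2 here called 139 genes higher, fewer than the study listed. The study also sequenced DDX4-IP libraries and does not say whether they entered the same fit. Of the alternatives with all 4 libraries, only the replicate number as a block took Tmem249 past the threshold, with 1.78 (adjusted p = 0.0431 in edgeR). The labels do not say that the numbers pair the samples. The size depended on the controls, since dropping control IgG-IP replicate 1 gave 1.02 and dropping the other control gave 2.53, while dropping either TSSK2-IP library gave 1.60. The study had picked this mRNA for in situ hybridization with these libraries in view, so that its direction here is not independent evidence.

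**Figure D2:**
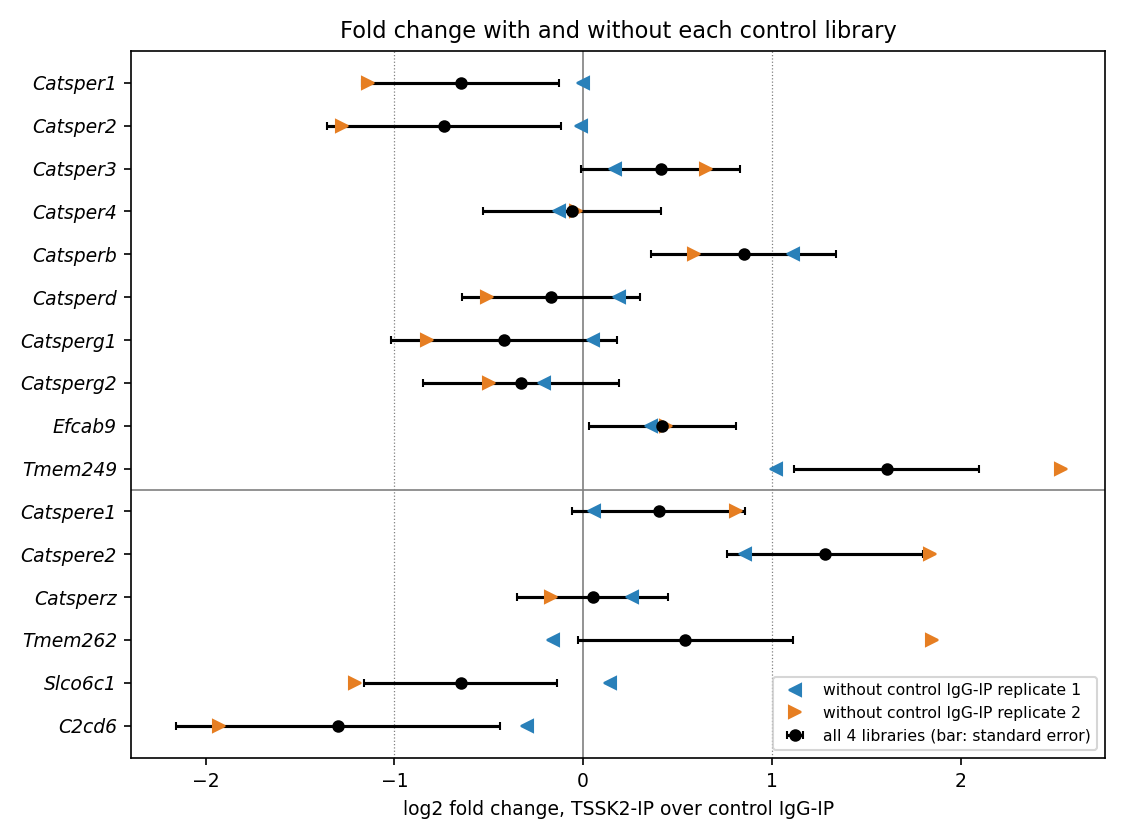
Log2 fold change of TSSK2-IP over control IgG-IP for the 10 genes (top) and 6 further CatSper subunits (bottom), with black points for the fit to all 4 libraries, bars for its standard error, and triangles for the fits without 1 control library. Dotted lines mark log2 values of -1 and 1. The Tmem249 triangles lie at 1.02 and 2.53, on either side of 1.61, and those of Catsper1 at -0.00 and -1.14.

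Read as a set, the 10 genes did not stand out from the background by the calls. By the thresholds of 1 (or -1) for the log2 fold change and 0.05 for the adjusted p, 0 members were called higher, where 0.693% of all tested genes were, and 0 were called lower, where 0% were. At an unadjusted p under 0.05 from edgeR's test, 1 member, Tmem249, was higher (8.34% of all tested genes) and 0 were lower (4.89%). By size alone, 1 member had a log2 fold change of at least 1 (11.1%) and 0 had one of -1 or below (9.88%). Both TSSK2-IP libraries lay above both controls for 3 members, Catsperb, Efcab9 and Tmem249 (27.3%), and below them for 1, Catsperg2 (21.6%). The latter count depended on the scaling, with 4 members (26.6% of all tested genes) by DESeq2's size factors and 5 (26.7%) by upper-quartile normalization. A gap of at least 2-fold in every pairing of a TSSK2-IP and a control library was found for 1 member, Tmem249 (4.01%). The median log2 fold change of the 10 genes was -0.12, with 4 above and 6 below 0, beside a median of -0.02 over all tested genes. Of the 5 tested Leydig cell markers, genes of steroid synthesis, 4 had both TSSK2-IP libraries above both controls and 0 were called. Their median log2 fold change was 0.69. The 10 spermatid markers had a median of -0.05, with 0 called. Of these 10, 4 had both TSSK2-IP libraries below both controls (21.6% of all tested genes) and 2 had both above (27.3%). A log2 fold change of -1 or below was found for 2 of them (9.88%). The 6 spermatocyte markers had a median of -0.52, with 5 negative values and 0 called. The 4 tested Sertoli cell markers had one of 0.54, with 0 called and 0 above both controls in both TSSK2-IP libraries. Without TMM, the Sertoli list summed to 40.9 and 23.6 CPM in TSSK2-IP and to 7.4 and 27.4 in control IgG-IP. For Sertoli and Leydig cells alike, control IgG-IP replicate 1 was the low library. The other medians were 0.06 for spermatogonia, -0.01 for peritubular cells, -0.34 for macrophages and -0.72 for red blood cells, from 6, 3, 3 and 1 tested markers. The part of these markers in the values of the members was not tested.

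Levels can be compared between genes only per length, and were computed as CPM per kilobase of annotated exon. On this scale the highest mean level in TSSK2-IP was that of Catsper4, with 69.2 ± 1.96, followed by Catsper2 with 63.0 ± 3.01, Tmem249 with 61.0 ± 0.212 and Catsper1 with 56.7 ± 2.53 (SD, n = 2 each). Catsper2 and Tmem249 did not differ beyond their spread. Catsper3 (47.7 ± 13.6) overlapped with Catsper1, Efcab9 (43.7 ± 1.39) and Catsperg1 (40.5 ± 1.52), and Catsperb (36.4 ± 1.66), Catsperd (32.2 ± 1.13) and Catsperg2 (25.2 ± 2.65) had the lowest levels. The order depended on the length used. Per kilobase of the longest transcript, Catsper2 was first, ahead of Catsper4 with 84.2 and Tmem249 with 65.5, and Catsperb, with 54.1, lay above Catsper3, with 48.8.

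In the controls the order differed between the replicates. Tmem249 had 10.2 CPM per kilobase in control IgG-IP replicate 1, the lowest of the 10 genes, and 30.2 in control IgG-IP replicate 2, where it ranked 7. In TSSK2-IP it ranked 3 and 2. Its level was at percentiles 96.7 and 96.5 of all tested genes in TSSK2-IP and at 69.7 and 90.3 in control IgG-IP. Catsper2 had the highest level in control IgG-IP replicate 1, with 147 CPM per kilobase, and Catsper4 that in control IgG-IP replicate 2, with 75.8. With the longest transcript as the length, Catsper2 ranked 1 in all 4 libraries.

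The composition of the channel messages does not depend on how libraries are scaled to each other, and was followed as each gene's share of the summed counts of the 10 genes. Tmem249 made up 4.53% (95% Wilson interval 4.07 to 5.04) and 4.58% (4.13 to 5.07) of the 7092 and 7600 counts in TSSK2-IP. It made up 0.539% (0.427 to 0.679) of 13175 and 2.49% (2.12 to 2.92) of 5749 counts in control IgG-IP. These intervals cover counting error only, and neither control interval reached those of TSSK2-IP. The count of Tmem249 was 0.52 and 0.552 times that of Catsper1 in TSSK2-IP and 0.0421 and 0.264 times that in control IgG-IP.

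Catsperb took a larger share in TSSK2-IP, 13.2% and 14.3%, than in control IgG-IP, 6.28% and 7.06%, and here the control replicates were close. Efcab9 had 3.03% and 3.22% against 1.58% and 2.70%, and the interval in control IgG-IP replicate 2, 2.31 to 3.15, overlapped with both TSSK2-IP intervals. Catsper2 had 16.4% and 15.5% against 26.5% and 17.7%. The 4 pore subunits together made up 38.3% and 39.5% in TSSK2-IP and 48.3% and 43.6% in control IgG-IP, and the 4 auxiliary subunits 54.2% and 52.7% against 49.6% and 51.2%. The pore subunits thus had the smaller part in both TSSK2-IP libraries, by the counts and without a test.

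**Figure D3:**
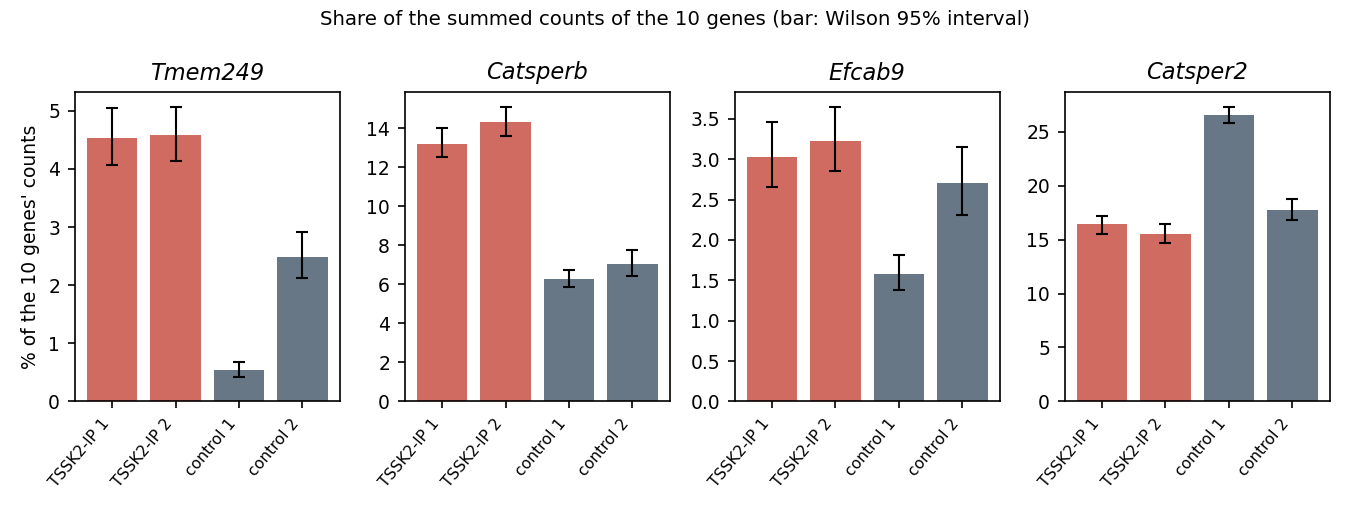
Share of the summed counts of the 10 genes taken by Tmem249, Catsperb, Efcab9 and Catsper2 in each library, in percent on axes that start at 0, with red bars for TSSK2-IP, blue bars for control IgG-IP and error bars for 95% Wilson intervals. Tmem249 holds 4.53% and 4.58% in TSSK2-IP against 0.539% and 2.49% in control IgG-IP, and Catsperb 13.2% and 14.3% against 6.28% and 7.06%.

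The genes of 6 further subunits of the complex were examined as a list. No gene of it was called in either direction, where 0.693% of all tested genes were called higher and 0% lower. At an unadjusted p under 0.05 from edgeR's test, 1 was higher (8.34% of all tested genes). The median log2 fold change was 0.23, beside -0.02 over all tested genes. This median was 0.10 when control IgG-IP replicate 1 was dropped and 0.32 when the other control was. Catspere2, an extracellular subunit like Catsperb, had 1009 and 1082 counts in TSSK2-IP and 358 and 499 in control IgG-IP, or 209 and 206 against 55.9 and 115 CPM. The groups did not overlap, and the log2 fold change was 1.28 (SE 0.52), with an adjusted p of 0.325 in edgeR. Dropping control IgG-IP replicate 1 gave 0.86 and dropping the other control 1.84. Catspere1, which the annotation gives as an unprocessed pseudogene and which shares 11.5% of its stretches of 100 bases with Catspere2, had a log2 fold change of 0.40 (adjusted p = 0.714), and 0.06 without control IgG-IP replicate 1.

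C2cd6, a C2-domain subunit needed to bring the channel to the flagellum, had both TSSK2-IP libraries below both controls. It had 3099 and 3251 counts in TSSK2-IP and 14888 and 3378 in control IgG-IP, or 642 and 619 against 2323 and 776 CPM. Its log2 fold change was -1.30 (SE 0.86, adjusted p = 0.506), and -0.30 without control IgG-IP replicate 1. Slco6c1, an organic anion transporter of the complex, had -0.65 (adjusted p = 0.572) and Catsperz, the partner of Efcab9, 0.05 (adjusted p = 0.964). The counts of Catsperz are uncertain too, since 25.4% of its stretches of 100 bases occurred in Kcnk4. Tmem262, another small transmembrane subunit, had 0.54 (adjusted p = 0.680) and only 31 to 114 counts per library. Without control IgG-IP replicate 1, Slco6c1 and Tmem262 changed sign, to 0.14 and -0.16, and Catsperz had 0.26.

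A list of 15 genes for other ion channels, transporters and signalling proteins of sperm gave a wider frame. Of these, 14 were tested, Slc9b2 being too low, and 0 were called in either direction. Of the tested genes 2 had a positive log2 fold change, Cftr, a chloride channel, with 1.11 (adjusted p = 0.473) and Abhd2, the lipid hydrolase of the sperm progesterone response, with 0.34 (adjusted p = 0.800). The other 12 were negative, and the median was -0.87, beside -0.02 over all tested genes. This direction rested in large part on 1 library, as without control IgG-IP replicate 1 the median was -0.21, with 5 genes positive and 9 negative, and Cftr and Abhd2 had 0.41 and 0.76. At an unadjusted p under 0.05, 2 of the 14 were lower, where 4.89% of all tested genes were. Prkaca, the catalytic subunit of protein kinase A, had -1.06 (adjusted p = 0.364), Lrrc52, a subunit of the sperm potassium channel, -0.96 (adjusted p = 0.366) and Slc26a8, an anion transporter of the sperm annulus, -1.39 (adjusted p = 0.378). Leaving out the same control library gave -0.22, -0.51 and -0.24 for these 3 genes.

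Tmem249 was set against all tested genes by the Euclidean distance between profiles of log2 CPM over the 4 libraries, each centred on its own mean. The 5 nearest genes were N4bp2l1 (distance 0.0962), Sirt3 (0.125), Gpr146 (0.14), Ppt2 (0.152) and Zfp934 (0.162). Sirt3, the best covered of them, had 94.1 and 97.2 CPM in TSSK2-IP and 17.5 and 46.0 in control IgG-IP. Among the 9 other members, the nearest was Catsper3 at rank 4346, ahead of Efcab9 at 4798 and Catsperb at 4819, and the farthest was Catsper2 at rank 12775. Catspere2 was closer than any of these members, at rank 298. It was the only further subunit looked up, and the one with the largest log2 fold change of that list.

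The genes beside Tmem249 were read for their own values, because reads of overlapping transcripts could be assigned to it. No counted gene shares exon bases with Tmem249. Fbxl6 lies 355 bases away on the same strand and had 3 and 6 counts in TSSK2-IP and 4 and 12 in control IgG-IP, too few to be tested and few beside the 71 to 348 counts of Tmem249. Slc52a2, a riboflavin transporter, lies 3466 bases away on the opposite strand and had a log2 fold change of -0.88 (adjusted p = 0.461), and -0.41 without control IgG-IP replicate 1.

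The wider region was looked at after these values had been seen. Within 100 kb there were 13 other counted genes, of which 12 were tested. Of these, 6 had a positive and 6 a negative log2 fold change, with a median of -0.12, and 3 of the 12 reached at least 1, where 11.1% of all tested genes did. These were Scrt1, Dgat1 and the low Scx, with 24 and 16 counts against 2 and 4. Scrt1, a zinc finger transcription factor gene 10.7 kb from Tmem249, had 530 and 406 counts in TSSK2-IP and 91 and 137 in control IgG-IP, or 110 and 77.3 against 14.2 and 31.5 CPM. Its log2 fold change of 2.04 (SE 0.48, adjusted p = 0.0782) was 1.57 without control IgG-IP replicate 1. Dgat1, an enzyme of triglyceride synthesis 21.3 kb away, had 99.1 and 105 CPM against 52.0 and 40.0, with a log2 fold change of 1.15 (adjusted p = 0.282), and 1.36 without that control library. Values of -1 or below, found for 9.88% of all tested genes, occurred on both sides of Tmem249. Mroh1, on the side of Scrt1 and Dgat1, had -1.33 (adjusted p = 0.349), and Cpsf1, on the other side, -1.34 (adjusted p = 0.277). Without that control library these were -0.35 and -0.63. Adck5, on the side of Cpsf1, had 0.89 (adjusted p = 0.503), and 0.94 without that library.

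**Figure D4:**
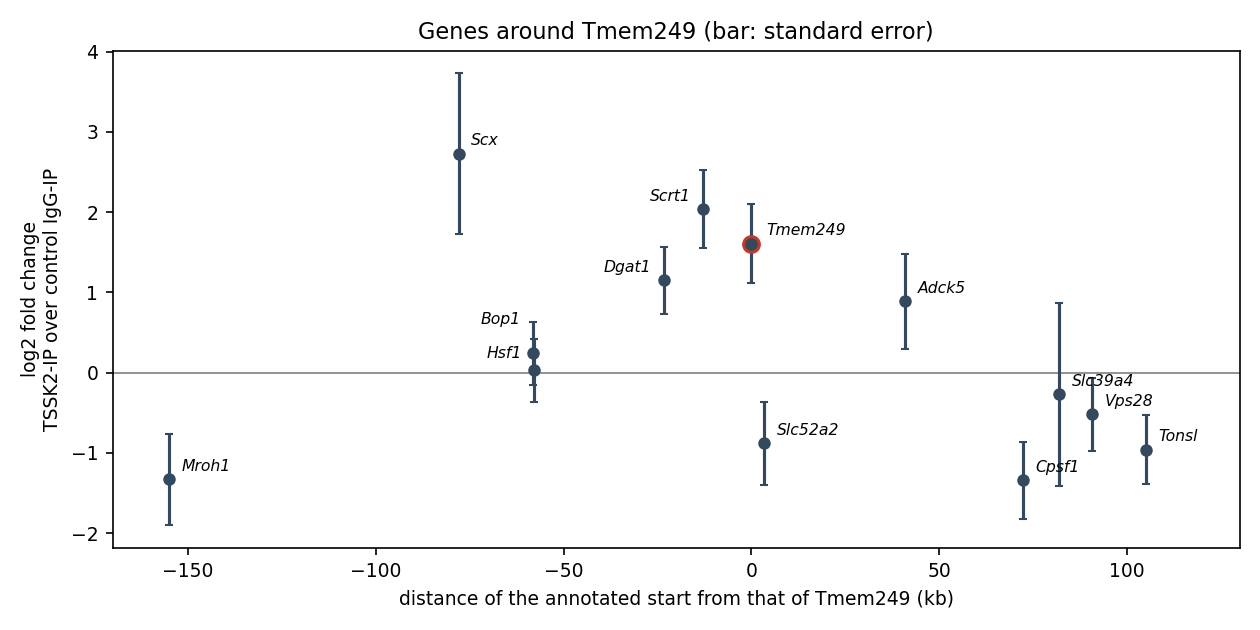
Log2 fold change of TSSK2-IP over control IgG-IP, with bars for the standard error, of Tmem249 (red outline) and the 12 tested genes within 100 kb of it, against the distance of each gene's annotated start from that of Tmem249 in kilobases. Scrt1 at 2.04 and Dgat1 at 1.15 lie beside Tmem249 at 1.61, and Slc52a2 on its other side lies at -0.88. Mroh1, on the side of Scrt1, lies at -1.33 and Adck5, on the side of Slc52a2, at 0.89.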

How the data were processed

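Paired-end reads of directional libraries were trimmed by the authors (Trimmomatic 0.39), aligned with STAR to GRCm38 and assigned to genes with featureCounts 2.0.3, and the raw counts were deposited without normalization. Versions are those of the submitters' processing notes. The strand setting and the handling of reads that map to several places are not given in the sources used here, so near copies, and genes that overlap on opposite strands, may exchange reads. Gene names, exons and coding sequences were taken from GENCODE vM21, on the same build, in which 21894 of the 21936 identifiers were found and 42 were not.

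Counts were fitted with edgeR 4.0.16 in R 4.3.3 by filterByExpr, TMM normalization, glmQLFit and glmQLFTest, with all 4 libraries and no covariate, and p-values were adjusted by the Benjamini-Hochberg method over the 14722 tested genes. The estimated common dispersion was 0.135. A gene was called higher or lower where the log2 value reached 1 or -1 and the adjusted p was at most 0.05. Standard errors follow from the fold change and its F statistic. Mean levels are given with their SD. Alternatives were DESeq2 1.42.0, its size factors, upper-quartile normalization, no filter on low counts, the replicate number as a block, the summed paralogs, the longest transcript as gene length, and leaving out each library in turn.

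The members and lists were chosen with earlier results of these data known. Named were all 10 members, the 6 further CatSper subunits, the 3 ion transport genes with the smallest p, genes that overlap a member or lie within 10 kb of Tmem249, and the 5 genes nearest to it in profile. Cftr, Abhd2, Scrt1, Dgat1, Scx, Cpsf1, Mroh1 and Adck5 were named after their values had been seen. The marker lists of cell types held 3 to 10 genes, none of which was called. The DDX4-IP samples were not analysed here.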

Additional observations from a re-analysis of the deposited data

How the results depend on the processing

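With all 4 libraries in the fit, 51 of 52 alternative values of the 10 genes kept their direction and their side of the thresholds, and 0 changed direction. The exception was Tmem249 with the replicate number as a block, with a log2 fold change of 1.78 (SE 0.53, adjusted p = 0.0431 in edgeR), which made 1 member called higher. The labels do not say that the numbers pair the samples, and deviations of same-numbered libraries from their group means correlated at 0.13, so no pairing was assumed. The block called 274 genes higher and 3 lower, against 102 and 0 without it. For Tmem249, DESeq2 gave 1.59 (adjusted p = 0.272), its size factors 1.50 (0.236), upper-quartile normalization 1.48 (0.266) and no filter 1.63 (0.074). The count of members with both TSSK2-IP libraries below both controls, 1 with TMM, was 4 with DESeq2's size factors, 5 with upper-quartile normalization and 2 without a filter, where 21.4% of all genes were below. Catsperz turned from 0.05 to -0.04 with DESeq2 and -0.08 with its size factors. The median over all tested genes, -0.02, was -0.20 with DESeq2, -0.14 with its size factors and -0.15 without a filter. Over all genes, 139 were called higher by DESeq2, 103 with its size factors, 20 with upper-quartile normalization and 283 without a filter, which also called 24 lower.

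Leaving out a library changed more, and 33 of 40 such values of the members kept direction and side. A lone library is then assumed to vary like those of the other group, and without a control library the fit holds no spread between controls. Calls of members and of listed genes in such fits are therefore left out, and only log2 fold changes are given. Tmem249 ranged from 1.02, with control IgG-IP replicate 1 dropped, to 2.53, with the other control dropped. In the former fit Catsperb also reached 1, with 1.11. In the latter Catsper1 and Catsper2 reached -1, with -1.14 and -1.28. The median of the further subunits was 0.10 in the former fit and 0.32 in the latter, and that of the ion transport genes -0.21 and -1.39. The median of the members ranged from -0.27, without control IgG-IP replicate 2, to 0.11, without control IgG-IP replicate 1. The following log2 fold changes turned in sign, with control IgG-IP replicate 1 left out at one end of the range and control IgG-IP replicate 2 at the other. They ranged from 0.19 to -0.51 for Catsperd, from 0.05 to -0.83 for Catsperg1, from -0.16 to 1.85 for Tmem262, from 0.14 to -1.21 for Slco6c1 and from 0.26 to -0.17 for Catsperz, the first value of each being without control IgG-IP replicate 1. Calls over all genes ranged from 24 to 2853 higher and 0 to 2637 lower. Per kilobase of the longest transcript in place of all exons, Tmem249 ranked 4 and 3 of the 10 genes in TSSK2-IP and 10 and 9 in control IgG-IP.

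Precision is limited by the number of libraries and the unlike controls. The lowest count of a member was 71.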
